A study of Tribolium castaneum with 17 samples.

Results

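A group of 56 genes of the red flour beetle *Tribolium castaneum* was expressed in every library other than testis and had a lower level in testis. The members were chosen from the measured values, as gene models with 5 CPM (reads of a gene scaled to a common library size) or more in all 15 libraries other than testis and a higher testis value of at most 25% of the lowest of those 15 values. Of the 12302 gene models of the deposited table, 7047 met the 5 CPM minimum in the 15 libraries and are called broadly expressed genes here. The members are 0.795% of these genes and 0.455% of all gene models.

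All animals were wild type beetles of strain GA2. Libraries S1 to S3 were made from 0-5 hr embryos, S4 to S6 from 6-11 hr embryos, S13 to S15 from ovary, and S16 and S17 from testis. Female carcass (S7 to S9) and male carcass (S10 to S12) are the adult body without ovary or testis. Adult tissues came from beetles 4 days after eclosion, with 30 beetles pooled per library, and each embryo library held 80 to 100 embryos. The sexes were separated as pupae, and the paper gives the ovaries as those of virgin females. The parents of the embryos were older than the dissected beetles. All libraries were prepared together. The values are the authors' CPM scaled with TMM factors, which correct for differences in RNA composition between libraries. CPM are not divided by gene length, so that levels are mainly compared within a gene. Where levels of different genes are set side by side, they are a description that also depends on gene length.

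Genes expressed in many tissues often make products that most cells use, such as the machinery of protein synthesis, energy supply and transport. The broadly expressed genes here were set by level alone, and their functions were not examined. The insect testis holds germ cells at all steps from stem cells through meiosis to sperm, together with supporting somatic cells. During the final steps of sperm formation transcription is largely shut down in many insects. Testis RNA is also known to differ strongly from that of other tissues. None of the 56 members is named by the paper, and none could be matched to the reference table of 15518 genes (assembly icTriCast1.1), so no gene name or function is given for any member and they are described by identifier.

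The tissue labels were checked with 11 genes that the paper names for a tissue, chosen there on these same samples. The testis genes β2-tubulin (TC009035), Rad50 (TC006703) and TC032055 summed to 7288 and 5691 CPM in the testis libraries. Their sum was 157, 421 and 344 CPM in S10, S11 and S12 of male carcass, 3.18 to 7.29 CPM in female carcass and 11.8 to 27.1 CPM in the other libraries. The adult soma genes flightin (TC010476) and henna (TC000087) summed to 999.6 to 1179 CPM in the 6 carcass libraries, to 48.7 CPM in S16 and to 57.0 CPM in S17. Of the 3 ovary genes, only TC034053 was higher in ovary (mean of 499 CPM) than in the carcasses (51.6 and 32.5 CPM in females and males), and it was higher still in embryos (1250.02 CPM at 0-5 hr and 1006 CPM at 6-11 hr). The other ovary genes went against the label, with loco (TC009818) at 89.8 CPM in ovary against 197 and 146 CPM in female and male carcass, and quail (TC013108) at 28.1 CPM against 60.5 and 38.8 CPM. Of the 3 embryo genes, only caudal (TC032769) was higher in both embryo stages (128 and 139.98 CPM) than in the adult groups (3.87 to 24.1 CPM). TC005375 had 0.0193 CPM at 0-5 hr, below every adult group, and 55.9 CPM at 6-11 hr, and TC015380 had 0.264 and 5.56 CPM in the embryo stages against 45.4 CPM in testis. Library S6 had 6.79 CPM of TC005375 against 78.4 and 82.6 CPM in S4 and S5 of the same stage. In this gene S6 stood nearer to the 0-5 hr embryos (0 to 0.0295 CPM). The same held for TC015380, with 1.39 CPM in S6, 7.12 and 8.16 CPM in S4 and S5, and 0.183 to 0.342 CPM at 0-5 hr. Caudal had 118 CPM in S6, below S4 and S5 (151 CPM each) and below the 0-5 hr embryos (123 to 131 CPM).

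Across the members, the mean of the 5 other group means was 11.2 times the testis mean at the median (5.73 to 55.2 times). It was at least 8 times the testis mean in 41 members and at least 20 times in 11. Because these values chose the members, they are a description and were not tested. The mean testis level ran from 0.633 to 685 CPM with a median of 9.15 CPM, and 19 members lay under 5 CPM in testis. The lowest of the 15 other values ran from 5.36 to 3321 CPM with a median of 55.7 CPM, and was 100 CPM or more in 14 members (25%) against 10.9% of the broadly expressed genes. In whole tissues, fewer cells that express a gene and less RNA of it per cell cannot be told apart.

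**Figure D1:**
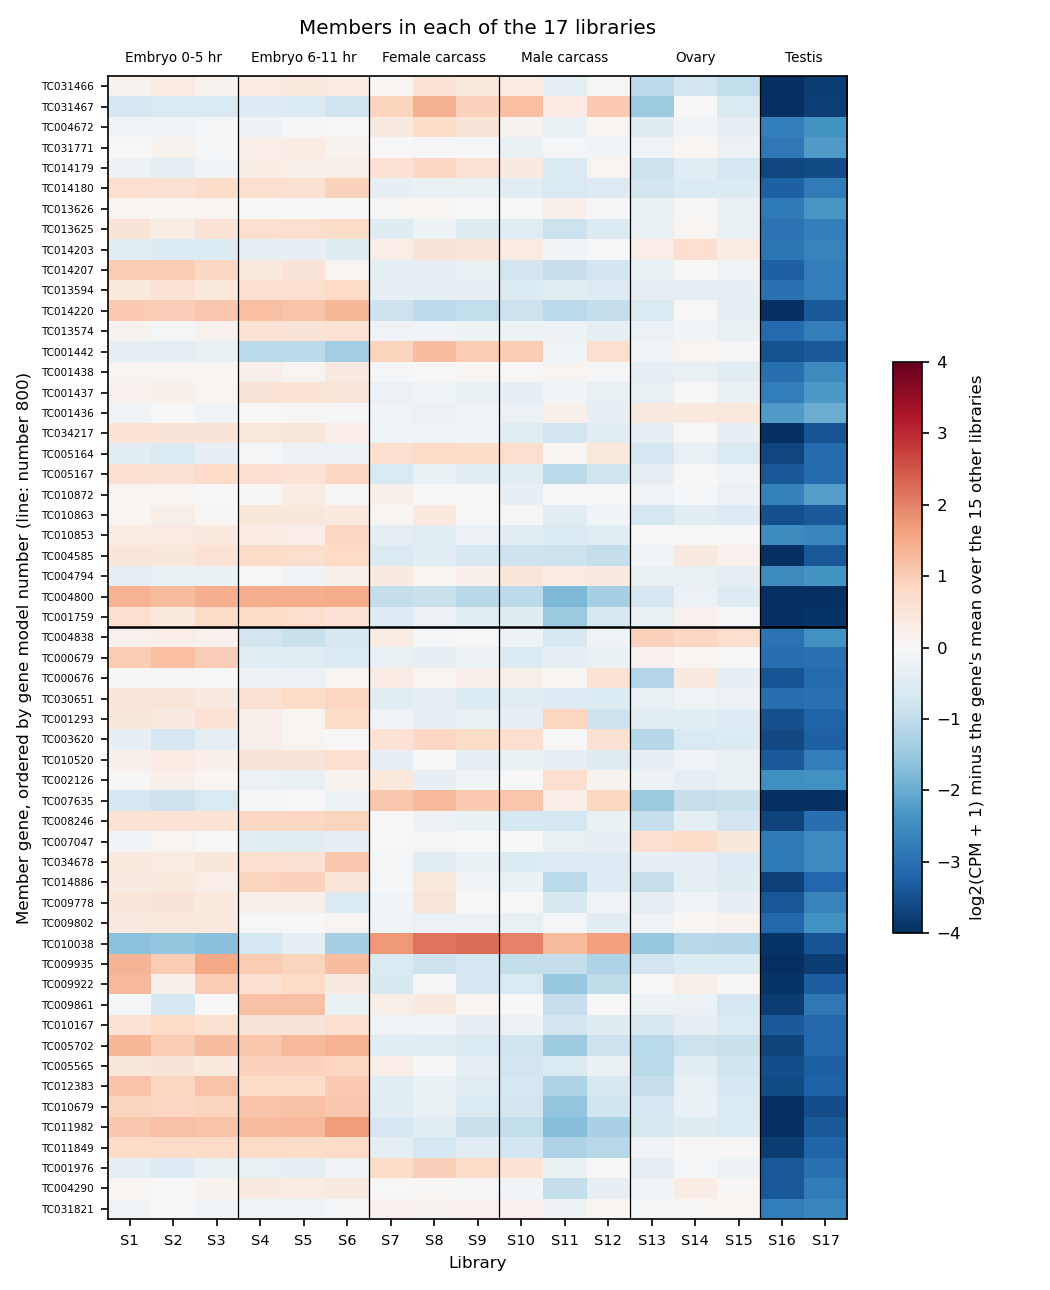
Heat map of the 56 members (rows, ordered by gene model number) in the 17 libraries (columns). Color gives log2(CPM + 1) minus the mean of the gene over the 15 libraries other than testis, cut at 4 either way, and the horizontal line separates the 27 members numbered under 800 from the 29 others. Testis libraries S16 and S17 are blue in every row, as the choice of the members requires, while the other groups differ among themselves from row to row.

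The lowest ratio of the higher testis value to the lowest other value was 12.4%, in TC000679. This gene had 40.2, 46.3 and 39.3 CPM in 0-5 hr embryos, 13.8, 14.1 and 13.01 CPM in 6-11 hr embryos, and 22.1, 20.8 and 19.6 CPM in ovary. It had 16.1, 15.4 and 16.7 CPM in female carcass, 12.995, 14.6 and 15.96 CPM in male carcass, and 1.47 and 1.61 CPM in testis. The 2 testis libraries were nearly equal, and the youngest embryos were highest without overlap with any other group. Female carcass lay just above the later embryos, and male carcass overlapped with both.

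TC004800 followed at 12.9% and had the largest mean difference of all members, 55.2 times between the mean of the other groups and testis. It had 485, 443 and 505 CPM in 0-5 hr embryos, 502, 501 and 509 CPM in 6-11 hr embryos, and 113, 154 and 129 CPM in ovary. Female carcass had 94.1, 98.3 and 85.0 CPM, male carcass 87.1, 52.2 and 72.4 CPM, and testis 2.53 and 6.71 CPM. The embryos were well above all adult tissues, and the male carcass value of S11 was the lowest outside testis.

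In TC014179 (13.6%) the order was different, with 162, 191 and 161 CPM in female carcass, 138, 72.9 and 115 CPM in male carcass and 58.8, 79.8 and 66.03 CPM in ovary. Embryos had 93.6, 81.8 and 98.1 CPM at 0-5 hr and 131, 126 and 125 CPM at 6-11 hr, and testis 7.59 and 7.98 CPM. Female carcass was highest here and ovary overlapped with male carcass library S11.

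TC010863 (13.8%) differed less between the other groups, with group means from 39.9 ± 4.09 CPM (SD, n = 3) in ovary to 79.5 ± 2.59 CPM (n = 3) in 6-11 hr embryos. Its testis values were 4.18 and 4.88 CPM. TC007635 (13.8%) had 3.65 and 2.18 CPM in testis and was one of 2 members with a higher value in S16 than in S17. The other was TC010853, with 36.2 and 34.5 CPM.

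TC031466 (13.98%) and TC034217 (14.3%) complete the 7 members with a ratio under 15%. TC031466 had 7.30 and 14.6 CPM in testis, and its lowest other value was 105 CPM in ovary library S13. TC034217 had 6.71 and 12.0 CPM in testis, with means of 203 ± 3.16 CPM in 0-5 hr embryos and 97.4 ± 11.2 CPM in male carcass (SD, n = 3 each). Of the next genes, TC001759 (16.6%, 24.2 times), TC004585 (16.96%, 15.4 times) and TC030651 (17.04%, 9.36 times) all had their highest group mean in 6-11 hr embryos.

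TC009861 (15.7%) had the lowest testis level of the members, 0.118 CPM in S16 and 1.15 CPM in S17. In 6-11 hr embryos it had 34.3 and 33.8 CPM in S4 and S5 but 12.1 CPM in S6, which lay inside the range of the 0-5 hr embryos (13.9, 8.54 and 14.8 CPM). Carcasses had 17.4, 19.0 and 15.3 CPM in females and 14.8, 7.32 and 14.7 CPM in males, and ovary had 12.7, 12.3 and 8.63 CPM. At these levels the value of S16 rests on few reads, since 1 read was worth 0.0217 to 0.0595 CPM.

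**Figure D2:**
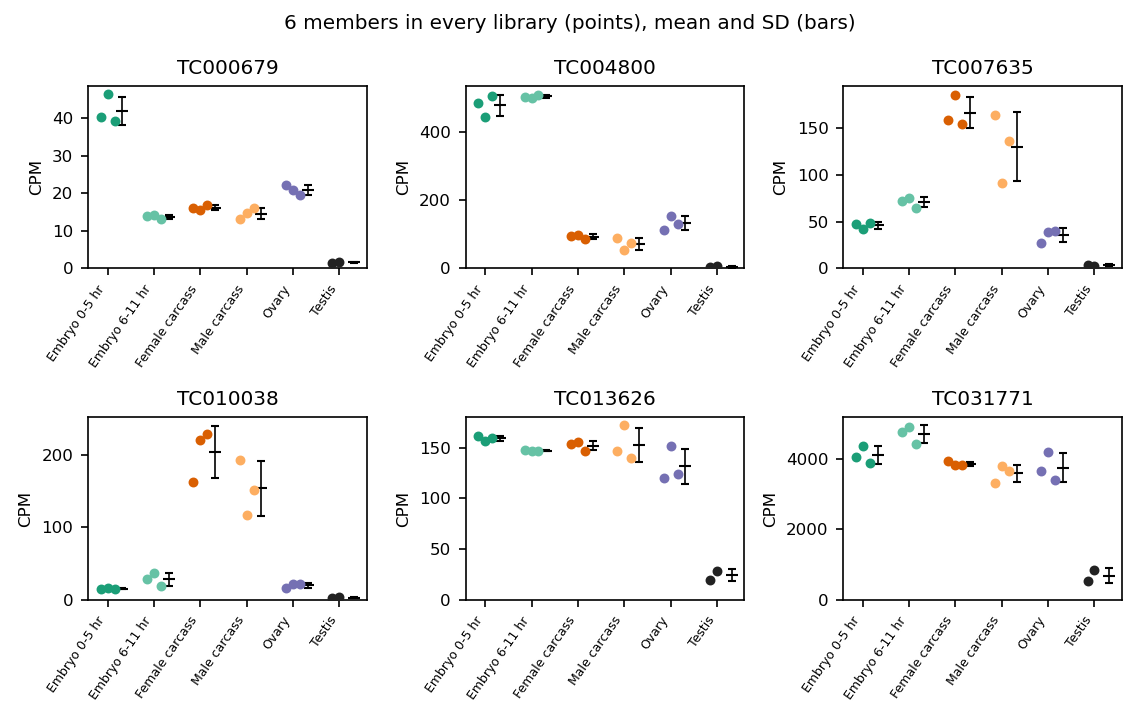
CPM of 6 members in each library (points, by group) with the mean and SD of the group beside them (n = 3, testis n = 2). TC000679 was highest in 0-5 hr embryos, TC004800 in both embryo stages, TC007635 and TC010038 in the carcasses, and TC013626 and TC031771 were nearly level outside testis.

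The members with the highest CPM were not the ones with the lowest ratios. TC031771 had 4054, 4366 and 3869.9 CPM in 0-5 hr embryos, 4769, 4898 and 4409 CPM in 6-11 hr embryos, 3927, 3824 and 3821 CPM in female carcass and 3321, 3786 and 3661 CPM in male carcass. Ovary had 3640.0, 4190.2 and 3385 CPM, and testis had 542 and 828 CPM. The 15 values outside testis lay within a narrow band, and S17 was close to the limit of the choice (24.9%). TC010520 (55.6 and 84.3 CPM in testis, group means of 453 to 859 CPM elsewhere), TC034678 (66.6 and 81.1 CPM, 332 to 845 CPM elsewhere) and TC008246 (28.5 and 46.6 CPM, 239.9 to 686 CPM elsewhere) were highest in 6-11 hr embryos. TC004794 had 52.2 and 57.3 CPM in testis and was highest in male carcass, at 403 ± 20.8 CPM (SD, n = 3). TC005164 had 28.0 and 43.4 CPM in testis and was highest in female carcass, at 615 ± 30.9 CPM (SD, n = 3).

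The ratio was 20% or more in 35 members. Just inside the limit were TC010872 (25.0%), TC031771 (24.9%) and TC010679 (24.9%). Just outside were TC014217 (25.03%, testis 12.1 and 16.9 CPM, lowest other value 67.4 CPM), TC001761 (25.2%, testis 3.88 and 6.71 CPM, lowest other value 26.7 CPM) and TC014213 (25.2%, testis 14.5 and 18.4 CPM, lowest other value 73.1 CPM). The values on the 2 sides of the limit thus differ by little. With CPM from library totals in place of the TMM scaling, 60 genes met the rule and 39 of them were members. Testis was below all 15 other libraries in 1587 of the broadly expressed genes (22.5%).

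The value of library S17 set membership almost everywhere. S17 was higher than S16 in 54 of the 56 members (96.4%), against 41.0% of broadly expressed genes with a lower S16 than S17. At the median a member had 69.2% of its S17 level in S16, with a range from 10.3% in TC009861 to 167% in TC007635. In the 1531 broadly expressed genes outside the group that also lay below all 15 other libraries in testis, S16 was lower in 74.3% and the median was 85.0%. Beside this, the soma gene flightin (TC010476) had 7.65 CPM in S16 and 13.8 CPM in S17, while henna (TC000087) had 41.0 and 43.2 CPM. Of the ovary genes, TC034053 had 33.7 and 62.1 CPM, loco (TC009818) 56.1 and 56.9 CPM and quail (TC013108) 12.6 and 14.2 CPM, and the 3 testis genes were higher in S16. The part of these differences in the values of the members was not tested. With S16 as the only testis library the rule was met by 227 genes, and with S17 alone by 64. Leaving out a testis library can only add genes to the 56.

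**Figure D3:**
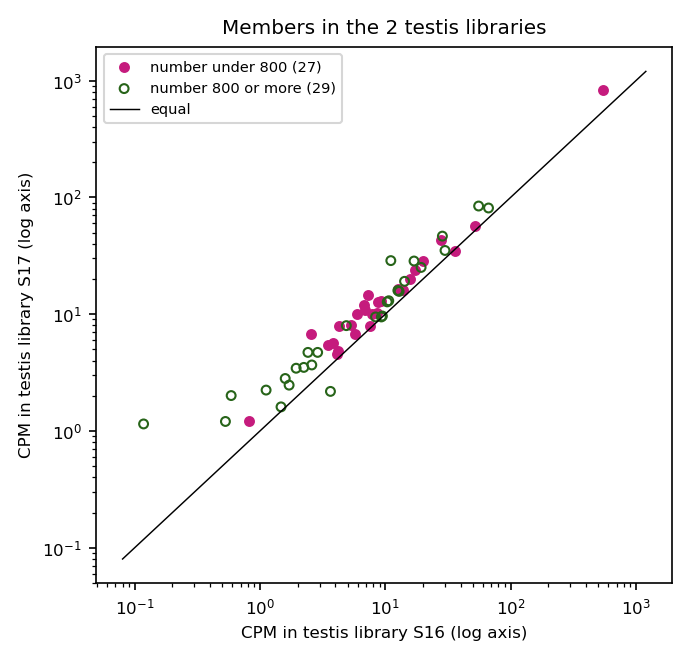
CPM of each member in testis library S16 (horizontal, log axis) and S17 (vertical, log axis), with a line of equal values. Filled points are the 27 members numbered under 800, open points the 29 others, and 54 of the 56 points lie above the line.

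A low level in a single group was found most often for testis. With the same rule applied to each group in turn, 56 genes were low in testis, 7 in female carcass, 2 in 0-5 hr embryos and 0 in 6-11 hr embryos, male carcass and ovary. Testis has only 2 libraries, which makes the rule easier to meet. With 2 of the 3 libraries of a group, the counts were 7 to 15 for female carcass, 2 to 4 for 0-5 hr embryos, 0 or 1 for 6-11 hr embryos and 0 for male carcass and ovary.

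The members were not spread evenly over the gene models. The deposited table gives each gene model a number, from 2 to 16591, and 27 of the 56 members (48.2%) had a number under 800, where 5.62% of the broadly expressed genes lie. Among the broadly expressed genes numbered under 800, 27 of 396 were members (6.82%), against 29 of 6651 numbered 800 or more (0.436%). The gene number took no part in the choice of the members, but the limit of 800 was set after the values were seen, so the difference was not tested.

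The other genes of the same numbers were also low in testis. In blocks of 100 numbers, the median difference of testis from the mean of the other groups was -2.28 to -1.94 on the log2(CPM + 1) scale in each of the 8 blocks under 800. Apart from these 8 and 2 further low blocks, the medians of the 145 blocks with 20 or more broadly expressed genes were between -0.66 and 0.60. Genes under 800 that are not members had a median of -2.04 (quartiles -2.46 and -1.62), and those numbered 800 or more had a median of -0.09 (quartiles -0.79 and 0.66). Testis was below all 15 other libraries in 345 of the 396 genes under 800 (87.1%) and in 18.7% of the others. Only 4 of the 396 had a mean log2 level in testis at or above that of the other groups.

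The 2 further blocks were at numbers 14900 to 14999 (median -1.44, 23 broadly expressed genes) and 16300 to 16399 (median -1.50, 25 genes). They held the members TC001976, TC004290 and TC031821, so that the 10 low blocks together held 30 members (53.6%) and 6.30% of the broadly expressed genes. The other 26 members were spread over 24 blocks with medians from -0.57 to 0.28, of which 16 were below 0.

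**Figure D4:**
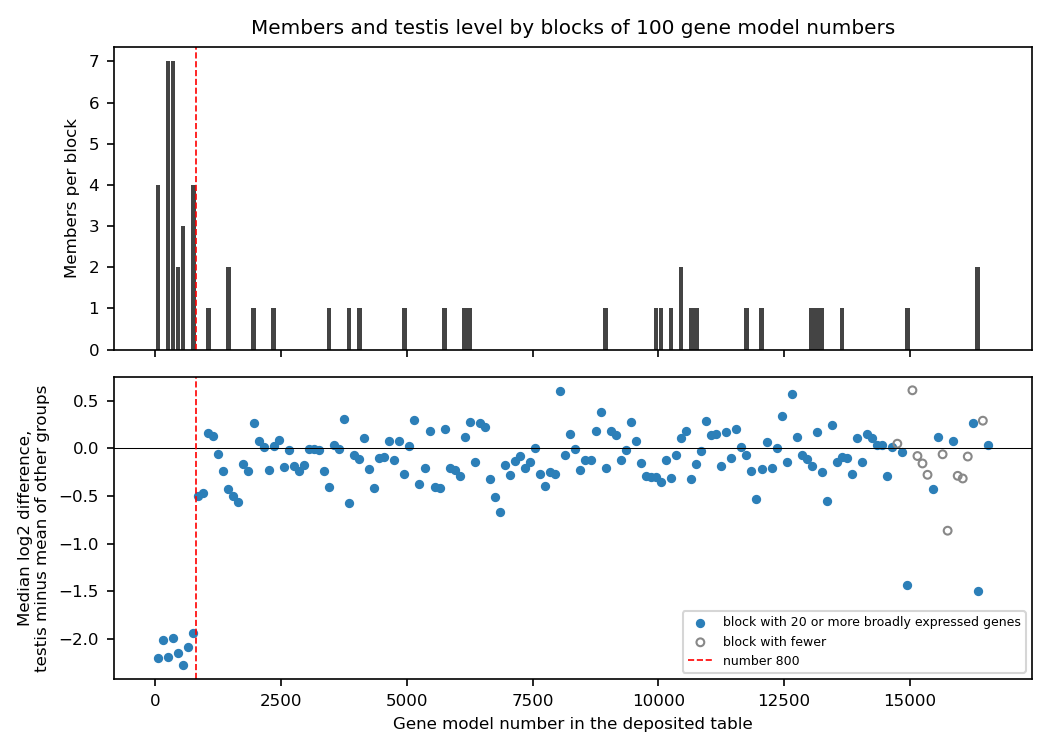
Members per block of 100 gene model numbers (upper panel, bars) and the median log2 difference of testis from the mean of the other 5 groups over the broadly expressed genes of each block (lower panel, points; open points are blocks with fewer than 20 such genes). Left of the dashed line at number 800 all 8 medians lie between -2.28 and -1.94, and 6 of the 8 blocks hold members.

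What the numbers stand for is not stated in the table. When identifiers were matched to the reference table by the number in a synonym, taking a GLEAN number as the number of the TC identifier, 45 gene models outside the group matched, with numbers from 1011 to 15319. Of the 44 pairs that follow each other in gene number, 31 lay on the same chromosome of that assembly. None of the matched genes had a number under 800, and the chromosome of these members was not determined here.

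The low testis level of these genes had no counterpart of the same size in the other male sample. The median difference of male from female carcass was -0.18 for the 396 genes under 800 and -0.08 for the genes numbered 800 or more, and that of ovary from female carcass was -0.01 and 0.24. Against testis, the 396 genes had medians of -1.99 for testis minus ovary and -1.83 for testis minus male carcass, where the genes numbered 800 or more had -0.05 and 0.31. The comparisons share libraries, so their values are given side by side.

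The members under 800 had a median level outside testis of 123 CPM and the other members of 84.1 CPM, without correction for gene length. The mean of the other groups was 9.57 times the testis mean at the median for the 27 members under 800 and 12.6 times for the 29 others. Both sets had 69.2% of the S17 level in S16 at the median. The median coefficient of variation of the 5 other group means was 30.7% and 41.8%. These splits describe genes chosen from the same values and were not tested.

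Some members stand next to each other in the numbering. The members hold 4 pairs of consecutive numbers, and 16 members lie within 5 numbers of another member. TC031466 and TC031467 are such a pair, both lowest in testis but with different levels elsewhere. TC031466 had 251 ± 18.5 CPM in 0-5 hr embryos, 279.7 ± 43.8 CPM in female carcass and 115 ± 13.9 CPM in ovary, and TC031467 had 57.1 ± 1.56, 191 ± 41.5 and 59.7 ± 27.6 CPM in the same groups (SD, n = 3 each). The pair TC014179 and TC014180 also differed, since the first was highest in female carcass and the second in 6-11 hr embryos, at 165 ± 17.2 CPM against 79.6 ± 1.31 CPM in female carcass (SD, n = 3 each). In these 2 pairs the neighbors were both low in testis and had different orders of the other groups.

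Outside testis the members were no more even than other genes. The coefficient of variation of the 5 other group means had a median of 40.2% (6.96 to 105%), against 42.2% over the broadly expressed genes, and was under 25% in 14 members (25%) against 21.4%. The steadiest was TC013626, with 161, 157 and 159.6 CPM in 0-5 hr embryos, 147, 147 and 147 CPM in 6-11 hr embryos, 153, 156 and 147 CPM in female carcass and 147, 172 and 139.7 CPM in male carcass. Ovary had 119.9, 152 and 124 CPM, and testis had 19.9 and 28.7 CPM. Only the 2 testis libraries stood apart in this gene.

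TC031821 was also level, with group means from 57.6 ± 2.25 CPM in 6-11 hr embryos to 70.8 ± 0.854 CPM in female carcass (SD, n = 3 each) and 8.36 and 9.47 CPM in testis. TC010872 had group means from 36.5 ± 2.47 CPM in ovary to 44.6 ± 4.72 CPM in 6-11 hr embryos (SD, n = 3 each) and 5.36 and 8.03 CPM in testis. TC001438 had means from 61.2 ± 2.52 CPM in ovary to 92.9 ± 8.24 CPM in 6-11 hr embryos (SD, n = 3 each) and 8.77 and 12.7 CPM in testis. With TC031771, described above, these were the 5 members with the lowest coefficient of variation.

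At the other end, the group means of TC010038 differed 13.6 times outside testis. Outside testis, the highest mean was in 6-11 hr embryos for 26 members, in 0-5 hr embryos for 12, in female carcass for 11, in ovary for 4 and in male carcass for 3. The embryo stages together held the highest mean of 38 members (67.9%), close to the 66% among the broadly expressed genes. The lowest mean was in male carcass for 26 members (46.4%, against 35.9%), in ovary for 20 (35.7%, against 17.2%), in 6-11 hr embryos for 5, in 0-5 hr embryos for 4 and in female carcass for 1 (1.79%, against 22.3%).

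Groups other than testis were then compared. The choice did not set these differences directly, but it used all 15 libraries and was not independent of them. A gene with a low group outside testis met the rule less easily, which can shape the counts and the side to which members lean. A member counted as called where limma gave at least a 2-fold difference with a Benjamini-Hochberg adjusted p below 0.01 over the 12152 genes tested. The share of all genes called stands beside the counts of each comparison in this fit. For counts at an unadjusted p under 0.05 and from other fits, this share is given only where stated. All 56 members passed the minimum for the test in the groups outside testis.

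Between ovary and female carcass, 9 of 56 members (16.1%) were lower in ovary, where 25.3% of all genes tested and 12.3% of the broadly expressed genes were lower. None was called higher (limma), where 19.8% of all genes and 17.6% of the broadly expressed genes were. At an unadjusted p under 0.05, 10 members were higher in ovary without reaching 2-fold, and edgeR and DESeq2 on reads called 0 as well. The median difference over the members was -0.13 on the log2 scale, below that of the broadly expressed genes (0.22) and of all genes (0.05).

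This result rests on the scaling between libraries. With CPM from library totals alone, where the median gene lay 0.75 higher in ovary than in female carcass, 12 members were higher and 3 lower. Of all genes tested, 41.2% were higher and 15.6% lower under that scaling. Members had a median of 0.61 on that scale against 0.95 for the broadly expressed genes, so that they stayed below the other genes. The members called lower under both scalings were TC010038, TC007635 and TC031467.

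The largest decrease was in TC010038. It had 16.02, 21.9 and 21.4 CPM in ovary and 163, 221 and 228 CPM in female carcass, without overlap (limma: -3.30 ± 0.23 on the log2 scale, SE, with an adjusted p = 9.84e-09). It had 193, 118 and 151 CPM in male carcass, 14.8, 15.7 and 14.5 CPM in 0-5 hr embryos, 29.0, 36.2 and 18.7 CPM in 6-11 hr embryos and 2.24 and 3.50 CPM in testis. Both carcasses were therefore high in this gene and both gonads and the embryos low, with testis below ovary.

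TC007635 had 26.5, 39.1 and 40.2 CPM in ovary and 159, 186 and 155 CPM in female carcass (limma: -2.23 ± 0.20 on the log2 scale, SE, with an adjusted p = 1.39e-07). Male carcass had 164, 91.1 and 136 CPM, and embryos had 47.0, 41.9 and 48.5 CPM at 0-5 hr and 72.2, 75.8 and 64.7 CPM at 6-11 hr. It shares with TC010038 a high level in both carcasses. The other 7 genes called lower in ovary, among them TC005164, TC014179, TC031466 and TC031467, had log2 fold changes from -1.75 to -1.03.

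Ovary and 0-5 hr embryos follow each other in the passage of maternal RNA into the egg. Here the ovaries came from younger, virgin females and not from the mothers of the embryos. Between these groups, 13 members (23.2%) were higher in the embryos. Of all genes tested 8.8% were higher, and of the broadly expressed genes 12.4%. None was lower in the embryos in limma, where 30.2% of all genes and 6.57% of the broadly expressed genes were. At an unadjusted p under 0.05, 4 members were lower without reaching 2-fold, and edgeR and DESeq2 on reads called 0 members lower. The median over the members was 0.48, near that of the broadly expressed genes (0.44), and 47 of the 56 were above 0 (83.9%, against 73.9%). Library totals gave 9 members higher and 1 lower, where 4.51% of all genes were higher and 34% lower.

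TC005702 had the largest increase, with 14.9, 17.6 and 17.2 CPM in ovary and 82.6, 67.1 and 78.9 CPM in 0-5 hr embryos (limma: 2.13 ± 0.18 on the log2 scale, SE, with an adjusted p = 6.72e-08). Embryos of 6-11 hr stayed at 71.0, 80.9 and 87.5 CPM, while female carcass had 23.7, 23.6 and 21.5 CPM, male carcass 18.3, 11.5 and 17.96 CPM and testis 1.59 and 2.81 CPM. The embryos were apart from all adult tissues, and ovary overlapped with male carcass but lay below female carcass.

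TC009935 had 134, 155 and 156 CPM in ovary and 595, 468 and 673 CPM in 0-5 hr embryos (limma: 1.94 ± 0.14 on the log2 scale, SE, with an adjusted p = 1.32e-08). It had 463, 425 and 543 CPM in 6-11 hr embryos, 152, 129 and 142 CPM in female carcass, 118, 117 and 97.8 CPM in male carcass and 12.9 and 15.7 CPM in testis. Like TC005702 it was higher in both embryo stages than in all adult tissues, and its ovary values overlapped with those of female carcass but lay above those of male carcass. TC004800, given above, rose by 1.86 from ovary to embryos (standard error 0.23, adjusted p = 3.05e-06 from limma). The remaining 10 genes had log2 fold changes from 1.10 to 1.71.

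Of the 13 members higher in 0-5 hr embryos, 5 had a number under 800 and 8 a higher number, and of the 9 lower in ovary than in female carcass 5 and 4. Among the broadly expressed genes, 49 of 396 numbered under 800 and 828 of 6651 others were higher in these embryos. Of the same 396 and 6651 genes, 63 and 802 were lower in ovary than in female carcass. The 2 lists of called members share TC031466 alone, which had its lowest level outside testis in ovary. Ovary libraries entered both comparisons.

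Between the embryo stages the members changed little. TC000679 was lower at 6-11 hr (limma: -1.55 ± 0.12 on the log2 scale, SE, with an adjusted p = 1.24e-06), falling from 42.0 ± 3.795 CPM to 13.6 ± 0.562 CPM (SD, n = 3 each), and was the only member called in limma with all libraries (1.79%, against 2.11% of all genes and 3.12% of the broadly expressed genes). None was called higher, where 2.03% of all genes and 0.255% of the broadly expressed genes were. At an unadjusted p under 0.05, 14 members were higher without reaching 2-fold, and edgeR and DESeq2 on reads called 0 higher. The median over the members was 0.13 and that of the broadly expressed genes 0.11. Without library S6, 2 members were higher at 6-11 hr, TC009861 and TC010038, and TC004838 was lower beside TC000679. The shares of other genes above come from the fit with S6, and none is given for the fit without it.

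**Figure D5:**
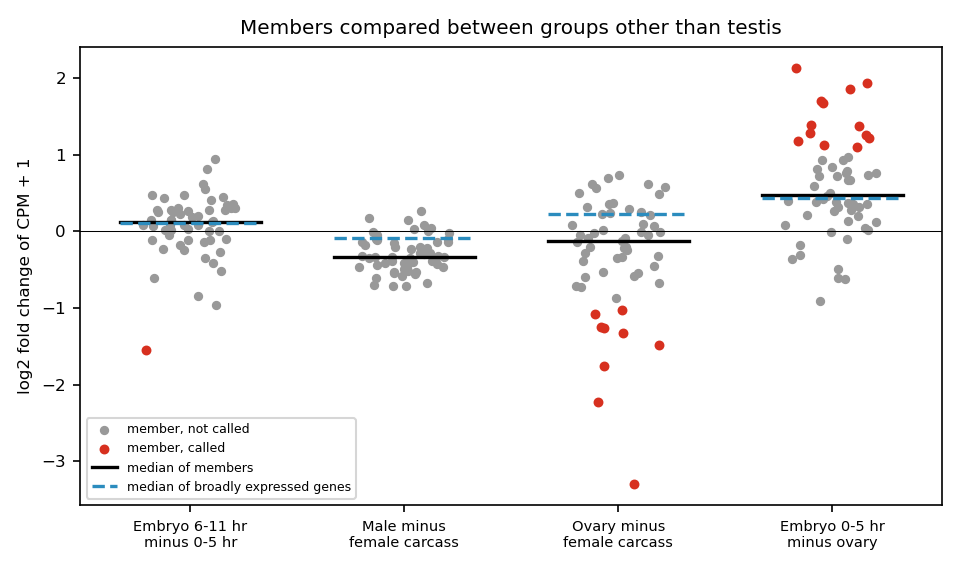
Log2 fold change of CPM + 1 for each of the 56 members (points) in 4 comparisons of groups other than testis, with called members in red. The solid line is the median of the members and the dashed line that of the 7047 broadly expressed genes. The medians are nearly equal for the embryo comparisons, and the members lie below the broadly expressed genes in male against female carcass and in ovary against female carcass.

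Between the carcasses no member passed the test in limma, edgeR or DESeq2 in either direction, where 5.13% of all genes were higher and 0.0658% lower in males. Of the broadly expressed genes 0.326% were higher and 0.0426% lower. At an unadjusted p under 0.05, 23 members were lower in males and 0 higher, none by 2-fold. No share of all genes at that p is given, so these counts describe the members alone. The differences leaned to 1 side, since 49 of the 56 (87.5%) were below 0, against 63.4% of the broadly expressed genes, with medians of -0.33 and -0.09. Under library totals the medians were -0.18 and 0.06. The range went from -0.71 in TC001976 (175 ± 53.1 CPM in males against 279 ± 26.1 CPM in females, SD, n = 3 each, adjusted p = 0.0138 from limma) to 0.27 in TC002126 (adjusted p = 0.400 from limma).

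The male carcass values of the members depended on the library. S11 was the lowest of the 3 male carcass libraries in 36 members (64.3%, against 36.6% of the broadly expressed genes) and the highest in 11. It had 80.3% of the mean of S10 and S12 at the median over the members, against 103% over the broadly expressed genes. In TC001293, S11 was highest instead, with 279 CPM against 124 CPM in S10 and 86.3 CPM in S12. S11 was also the library with the most RNA of the 3 testis genes among the carcasses (421 CPM, against 157 and 344 CPM in S10 and S12), and the part of this in the levels of the members was not tested. S11 held the lowest value outside testis for 20 members (35.7%, against 19.0% of the broadly expressed genes). S13, an ovary library, held it for 13 (23.2%, against 6.60%). Without S11 the rule was met by 74 genes and without all 3 male carcass libraries by 104. Both sets include the 56 by design, since leaving out libraries can only add genes.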

How the data were processed

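The samples were 17 libraries of poly(A) RNA with unpaired 75-nt reads. The authors deposited a signal per gene model, CPM scaled with TMM factors (reads aligned by HISAT2 2.0.5, raw counts by BEDTools, normalization by edgeR) for 12302 gene models. The smallest value above 0 of a library was taken as 1 read, and 100% of the 209134 values were then whole to within 0.01 read. Libraries held 18664366 to 34847471 such reads, and 1 read was worth 0.0217 to 0.0595 CPM. Whether the counting used strand is not given in the sources used here, so reads of overlapping gene models may be shared between them.

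Differences between groups were fitted with limma 3.58.1 (R 4.3.3; trend and robust options) on log2(CPM + 1) in 1 model of all 17 libraries, for the 12152 genes that reached 5 CPM in 3 libraries. The 4 comparisons were between groups other than testis. A gene was called at a 2-fold change and a Benjamini-Hochberg adjusted p under 0.01 over all genes tested, as in the methods of the study. The alternatives were edgeR 4.0.16 and DESeq2 1.42.0 on the recovered reads, 2 other scalings, other added constants, no filter, other CPM minimums, a fit without testis and leaving out each library. The members and lists were chosen with earlier results of these data known. The genes named are the 12 with the lowest testis ratio, the 6 with the highest levels, those on either side of the ratio limit, the 2 with the largest called changes each way in a comparison and the 5 steadiest. Other genes named were chosen after their values were seen. Replicates are separate pools of animals, each processed in a single day. Python 3.11.15 with pandas 2.3.3 and matplotlib 3.10.9 served for summaries and plots.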

Additional observations from a re-analysis of the deposited data

How the results depend on the processing

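No paired analysis was possible because each library has a number of its own (S1 to S17) and no number is shared between groups. The number of genes that met the rule was 60 with library totals, of which 39 were members, 66 with RLE factors, 52 with a minimum of 10 CPM, 71 with a minimum of 1 CPM and 104 without the 3 male carcass libraries. Leaving out each library in turn gave 56 to 227 genes. Leaving out libraries can only add genes under the rule, so these sets hold all 56 members by design. The genes numbered under 800 were 43.3% to 52.9% of those that met the rule in all these cases, a check added after the data were seen. Scaling moved the median gene most between ovary and female carcass. There library totals gave 12 members higher and 3 lower, beside 41.2% and 15.6% of all genes. Library totals also gave 1 member lower in 0-5 hr embryos than in ovary, where 34% of all genes were lower. Members lower in 6-11 hr than in 0-5 hr embryos numbered 2 with edgeR's quasi-likelihood and likelihood ratio tests, DESeq2, library totals and 0.1 added to each CPM. Without single libraries, 0 to 2 members were higher and 1 to 2 lower at 6-11 hr, 7 to 9 were lower in ovary than in female carcass with 0 higher, and 13 to 14 rose from ovary to 0-5 hr embryos with 0 lower. Members called between the carcasses were 0 in each direction in all these cases. The causes of these shifts were not tested. Testis rests on 2 libraries, which limits every testis value.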
